A study of Mus musculus with 42 samples.

Results

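The 500 SOX2-bound regions described here had a strong SOX2 peak in all 3 libraries of wild-type cells without CHIR, in none of the 3 libraries of wild-type cells with CHIR, and in at least 2 of 3 libraries of each of the CdxKO and T/BraKO lines with CHIR. They were selected on the SOX2 peak lists alone, out of 122752 regions made by merging the 20000 best peaks of each of 12 SOX2 libraries wherever peaks overlapped by at least 1 bp. SOX2, β-catenin and LEF1 were mapped by ChIP–seq, the sequencing of DNA pulled down with an antibody. The cells were differentiated from the mouse embryonic stem cell line HM1 (strain 129). All were cultured with FGF and with LGK974, which blocks secretion of WNT proteins, and all were collected at 72 h. The paper calls such cells epiblast-like without CHIR and caudal epiblast-like after CHIR, so these groups also differ in cell state. The SOX2 groups were wild type without CHIR99021 (WT noCHIR), wild type given CHIR99021 for the last day (WT CHIR), cells mutant for Cdx1, Cdx2 and Cdx4 (CdxKO) and cells mutant for T/Bra (T/BraKO), the mutants both with CHIR. β-catenin and LEF1 were mapped with CHIR in the same 3 genotypes. Each of the 10 groups held 3 biological replicates, one peak list each, and the 12 input samples of the 42 in the series were not analysed here. The mutant lines were derived from the line that served as wild type, so genotype and cell line cannot be told apart. Peak lists hold no expression values, so neither the deleted genes nor the cell type could be checked against marker genes.

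SOX2 is an HMG-box transcription factor of pluripotent and neural cells that often binds next to the POU factor OCT4 at a composite site. CHIR99021 inhibits GSK3 and so stabilises β-catenin, which is brought to DNA by LEF1 and other TCF family proteins. Epiblast cells that receive WNT signals take on a caudal identity and express T/BRA and then the CDX factors, transcription factors that specify the trunk and tail.

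The sequence below the SOX2 summit is shown for 8 regions, with the SOX and OCT-SOX letters marked, which are among the motifs described further on. Letters of the other motifs are not marked, such as OTX (TAATCC on either strand) in the A330070K13Rik, Galnt2, Stox2 and Spred2 windows. Each window holds the noCHIR summit and 100 bases on each side of it, on the plus strand of GRCm38, and capitals mark matches to CCATTGT or CCTTTGT on either strand, or to the OCT-SOX composite. The regions are those with the best mean noCHIR rank, or near a gene of the lists described further on, that held a match, and the 8 of them with the best rank are printed.
Ttc32 region, chr12:9132673-9132873: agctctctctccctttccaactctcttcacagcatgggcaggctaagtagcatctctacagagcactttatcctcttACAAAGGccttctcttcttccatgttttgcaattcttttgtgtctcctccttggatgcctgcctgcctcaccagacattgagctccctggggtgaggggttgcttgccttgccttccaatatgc
Gnas region, chr2:174257411-174257611: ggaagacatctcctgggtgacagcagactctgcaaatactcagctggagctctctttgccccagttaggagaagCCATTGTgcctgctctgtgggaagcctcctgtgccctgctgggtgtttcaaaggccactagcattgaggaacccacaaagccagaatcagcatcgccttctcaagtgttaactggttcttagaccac
A330070K13Rik region, chr5:130393008-130393208: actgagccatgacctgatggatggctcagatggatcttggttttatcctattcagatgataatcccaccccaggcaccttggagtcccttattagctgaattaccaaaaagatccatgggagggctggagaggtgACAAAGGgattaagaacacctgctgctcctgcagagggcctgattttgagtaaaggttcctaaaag
Galnt2 region, chr8:124284424-124284624: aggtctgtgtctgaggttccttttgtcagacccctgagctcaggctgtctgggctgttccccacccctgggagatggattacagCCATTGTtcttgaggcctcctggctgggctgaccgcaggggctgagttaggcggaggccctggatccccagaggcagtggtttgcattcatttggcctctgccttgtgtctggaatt
Stox2 region, chr8:47320806-47321006: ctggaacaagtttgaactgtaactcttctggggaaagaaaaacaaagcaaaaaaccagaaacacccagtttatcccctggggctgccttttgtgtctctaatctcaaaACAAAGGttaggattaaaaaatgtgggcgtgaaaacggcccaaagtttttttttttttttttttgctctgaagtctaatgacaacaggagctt
Tcerg1l region, chr7:138153577-138153777: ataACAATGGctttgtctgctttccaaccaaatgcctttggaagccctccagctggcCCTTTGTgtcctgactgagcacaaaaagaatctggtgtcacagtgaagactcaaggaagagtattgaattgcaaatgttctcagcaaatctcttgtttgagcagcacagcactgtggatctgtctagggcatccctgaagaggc
Kcnt2 region, chr1:140429381-140429581: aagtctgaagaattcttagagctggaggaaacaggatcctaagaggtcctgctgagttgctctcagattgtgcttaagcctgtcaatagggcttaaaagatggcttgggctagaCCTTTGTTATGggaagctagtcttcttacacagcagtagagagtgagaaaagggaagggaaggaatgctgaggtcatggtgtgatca
Spred2 region, chr11:19918050-19918250: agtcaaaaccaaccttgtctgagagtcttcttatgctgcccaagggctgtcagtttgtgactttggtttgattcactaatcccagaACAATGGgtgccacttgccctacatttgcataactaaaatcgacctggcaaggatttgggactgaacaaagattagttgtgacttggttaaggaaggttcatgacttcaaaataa
In all 8 windows, which were chosen for holding a match, a match began within 43 bp of the summit, and the Kcnt2 window held an OCT-SOX composite that begins 15 bp past it. The Tcerg1l window held 2 separate SOX matches, and the other windows held 1 match each apart from the overlapping pair at Kcnt2.

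SOX2 enrichment at these regions was highest without CHIR, lowest in WT CHIR and in between in both mutants. Fold enrichment, as deposited, is the number of fragments at the summit plus 1, over the local background plus 1. A region without a peak was set to a fold of 1. The median over the 500 regions was 12.7, 12.5 and 11.4 in the 3 noCHIR libraries. It was 5.20, 3.32 and 4.69 in WT CHIR. In CdxKO it was 8.10, 9.08 and 7.13, and in T/BraKO 7.38, 8.66 and 6.13. The 12 medians fell into 3 levels that did not overlap, noCHIR above the mutants and the mutants above WT CHIR, while CdxKO and T/BraKO overlapped each other. These values chose the regions, so they are a description and carry no test. A lower fold in a culture cannot be divided into fewer cells with SOX2 at the site and less SOX2 per cell.

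**Figure D1:**
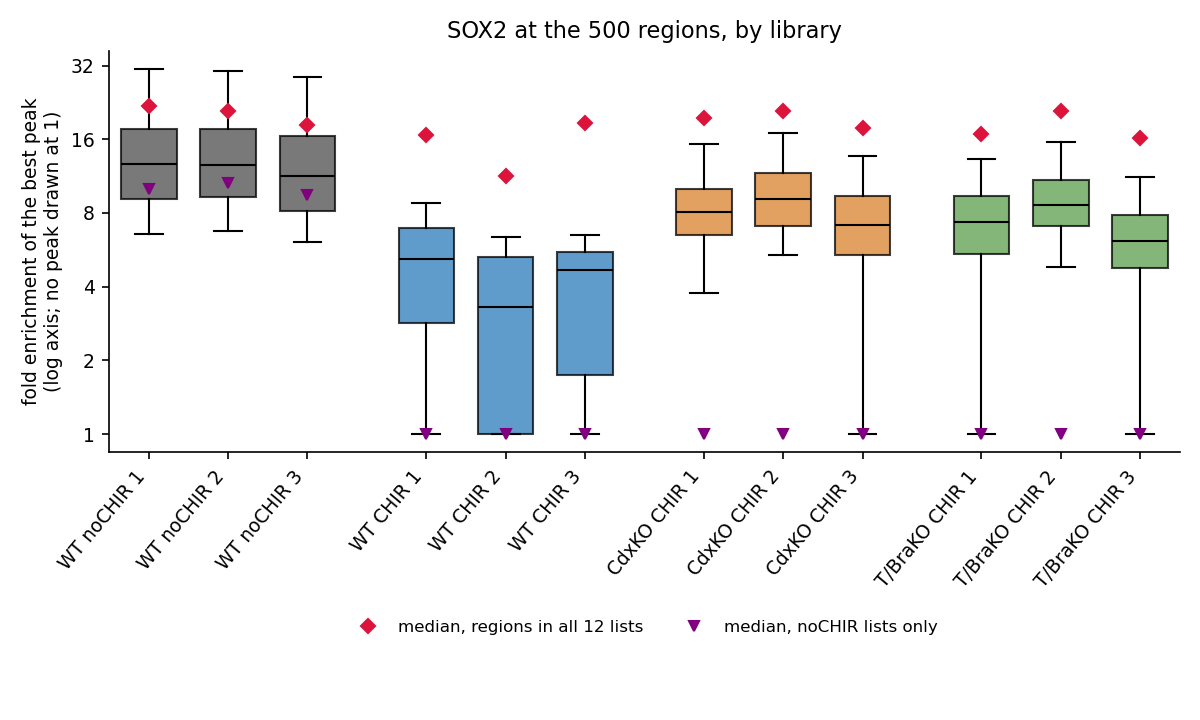
SOX2 fold enrichment at the 500 regions in each of the 12 libraries, on a log axis with a region without a peak drawn at 1. Boxes span the quartiles with the median as a line, whiskers span the 5th to 95th percentile, diamonds give the median of the 1385 regions in all 12 lists and triangles that of the 883 regions in the noCHIR lists only. The box medians of WT CHIR (3.32 to 5.20) lie below those of the mutants (6.13 to 9.08) and of noCHIR (11.4 to 12.7).

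Fragments at the summit were solved from the fold and p of the same peaks that chose the regions. Their order was the same, which is no separate support. Their medians leave out regions without a peak and were not scaled for depth here. The median number of fragments at the summit was 36, 35.5 and 34 in noCHIR over a local background of 1.66 to 1.76. It was 12, 10 and 14 in WT CHIR over a background of 0.847 to 1.70, and 20 in each CdxKO library over 1.16 to 1.61. T/BraKO replicates 1 and 2 had 17 and 20 over 1.07 and 1.24, and replicate 3 gave no fragment numbers because its fold and p could not be solved for whole fragments. Its folds may therefore be on another scale than those of the other libraries. A typical region in WT CHIR thus rests on 10 to 14 fragments where it was called, so its single values carry a large counting error.

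On the log2 scale, the median difference of WT CHIR from noCHIR was -2.03 (quartiles -2.60 and -1.43). The difference from noCHIR was smaller in CdxKO (median -0.68, quartiles -1.17 and -0.24) and in T/BraKO (median -0.90, quartiles -1.46 and -0.49). Mean log2 enrichment was below that of noCHIR at 433 of 500 regions in CdxKO and at 464 in T/BraKO. The rule asked for all 3 noCHIR lists but for only 2 of 3 lists of each mutant, which favours that order. Mean log2 enrichment was higher in CdxKO than in T/BraKO at 333 regions. The T/BraKO mean includes replicate 3, whose folds may be on another scale. For these counts the share over all SOX2 regions was not computed, so nothing is read from them. For scale, the 1385 regions called in all 12 lists differed from noCHIR by a median of -0.33 in WT CHIR, -0.05 in CdxKO and -0.19 in T/BraKO, and these were selected on the same lists.

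The label of these sites as kept only in the mutants does not hold for the complete lists. Of the 500 regions, 485 had a SOX2 peak of some rank in at least 1 WT CHIR library, 169 in all 3, 200 in 2 and 116 in 1. By library this was 76%, 53.6% and 75% of the 500, against 42.6%, 28.2% and 29.0% of all SOX2 regions. The WT CHIR peaks were weak for their lists: their median rank was 127830 of 1008922 peaks, 100398 of 289925 and 51882 of 205833. In CdxKO, 436 regions had a peak of some rank in all 3 libraries, and in T/BraKO 370 did, which the rule favours. Single libraries had a peak of some rank at 24.8% to 28.6% of all SOX2 regions in CdxKO and at 17.3% to 30.2% in T/BraKO. The 15 regions without any WT CHIR peak had median folds of 10.8 in noCHIR, 6.14 in CdxKO and 5.51 in T/BraKO.

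**Figure D2:**
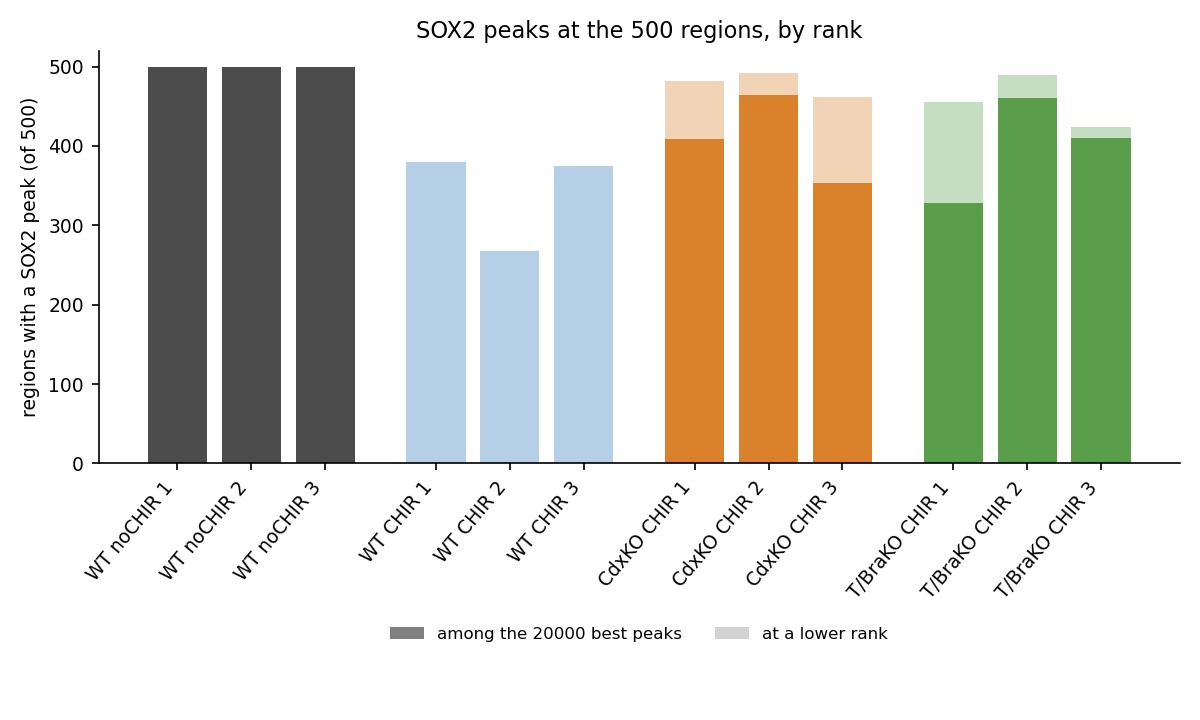
Number of the 500 regions with a SOX2 peak in each library, out of 500, with peaks among the 20000 best in full colour and lower-ranked peaks in pale colour. WT CHIR libraries had 0 regions among their best peaks by selection, yet 380, 268 and 375 regions at a lower rank, against 462 to 492 regions with any peak in CdxKO and 424 to 490 in T/BraKO. Over all SOX2 regions, the WT CHIR libraries had a peak of any rank at 42.6%, 28.2% and 29.0%.

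Even at regions selected for it, WT CHIR and the mutants were often not separated. All 6 mutant folds lay above all 3 WT CHIR folds at 94 of 500 regions (18.8%, against 0.363% of all SOX2 regions). Every CdxKO fold lay above every WT CHIR fold at 208 regions (background 2.29%), and every T/BraKO fold did so at 154 (background 1.13%). All 3 noCHIR folds lay above all 3 WT CHIR folds at 422 regions (background 6.31%) and above all 6 mutant folds at 149 (background 3.92%). The selection used these folds, so nothing is read from the gap to the background. The 113 regions called in all 6 mutant lists had median folds of 13.6 in noCHIR, 3.61 in WT CHIR, 9.50 in CdxKO and 8.94 in T/BraKO. The 189 called in just 2 lists of each mutant had 11.5, 2.96, 6.68 and 5.37.

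The number of regions depends on where the strong peaks end. A wider pool of 4492 regions was called in all 3 noCHIR lists and at least 2 lists of each mutant. Of these, 1537 were also called in all 3 WT CHIR lists, 1322 in 2, 1133 in 1 and the 500 in 0. From the other side, 2955 regions were called in all noCHIR lists and no WT CHIR list. Besides the 500, 429 of them reached 2 lists in CdxKO but not in T/BraKO, 272 reached 2 lists in T/BraKO but not in CdxKO, and 883, here called noCHIR-only, were among the best peaks of no mutant list. WT CHIR replicate 3 alone decided many of the exclusions: without it, 1338 regions would have met the rule. Just inside the limit, the region near Aldh1b1 ranked 20034 in WT CHIR replicate 2 with a fold of 6.91. Just outside it, the region near Ccdc88c ranked 19921 in WT CHIR replicate 3 with a fold of 6.12. A total of 210 of the 500 regions had a peak among the 40000 best of at least 1 WT CHIR library.

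The 500 regions lay on the 19 autosomes and the X chromosome, from 9 on chromosome 19 to 46 on chromosome 1. Their width had a median of 616 bp and ran from 241 to 1602 bp. By the summit, 226 were intergenic, 187 intronic, 80 within 1000 bp of an annotated start site (here called promoter), 4 in an untranslated region, 2 in a noncoding exon and 1 in a coding exon. The promoter share was 16% (95% Wilson interval 13.0 to 19.5), against 14.3% of all SOX2 regions, 5.21% of the noCHIR-only regions (3.93 to 6.88) and 23.2% of the regions in all 12 lists (21.1 to 25.5). The median distance to the nearest protein-coding start site was 33754 bp, between those of the regions in all 12 lists (22116 bp) and of the noCHIR-only regions (55844 bp). Members were spread out: 474 genes were nearest to them, and 23 of those to 2 or more. No gene reached the 4 regions set for naming a gene by number. Another member lay within 50000 bp of 27 of the 500.

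Of 8 motifs, the OTX site had the widest gap between these regions and the 883 noCHIR-only regions. Those too had lower-ranked peaks elsewhere, at 17.7% to 44.7% of them in a WT CHIR library. Each window (100 bp on either side of the summit) was read on both strands for exact letters. SOX was CCATTGT or CCTTTGT, and the octamer bound by OCT4 was ATGCAAAT. OTX was TAATCC and ZIC was CAGCAGG. TCF/LEF was CTTTGAA or CTTTGAT, which share letters with the SOX pair. CDX was CAATAAA or the same letters starting with CC, TA or TC in place of CA, and T-box was AGGTGTGA. The OTX letters were found in 50 of 500 windows, 10% (7.67 to 12.9), close to the 8.80% of all SOX2 regions and the 8.88% of regions in all 12 lists (7.49 to 10.5). In the 883 noCHIR-only regions they were found in 266 windows, 30.1% (27.2 to 33.2). OTX2 is a homeobox factor of the epiblast and the anterior neural plate. Both sets were made from the SOX2 lists, so the gap is given with no test.

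The SOX letters were found in 158 windows, 31.6% (27.7 to 35.8), against 17.1% of all SOX2 regions and 7.80% (5.76 to 10.5) of the same windows moved by 1000 bp. The regions in all 12 lists held them at 37.4% (34.9 to 40.0) and the noCHIR-only regions at 34.4% (31.4 to 37.6), both intervals overlapping that of the 500. The OCT-SOX composite, which contains part of the SOX letters, was in 30 windows, 6.00% (4.23 to 8.44). That share was 7.22% (5.97 to 8.70) in all 12 lists, 3.06% (2.11 to 4.41) in the noCHIR-only regions and 1.42% in all regions. Of the 30 composite windows, 16 also held a SOX match (53.3%, against 46.2% of the composite windows of all SOX2 regions). The octamer was found in 6.00% (4.23 to 8.44), against 3.96% (2.86 to 5.46) in the noCHIR-only regions. The ZIC letters, bound by zinc finger factors of the epiblast and neural plate, were in 23.8% (20.3 to 27.7), against 25.4% of the noCHIR-only regions and 10.3% of all regions. SOX and ZIC matches occurred together in 32 windows (6.40%), against 2.05% of all SOX2 regions. That share was 6.68% in the noCHIR-only regions and 8.38% in all 12 lists.

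Letters for the factors downstream of CHIR were not common in these windows. TCF/LEF letters were in 7.40% (5.42 to 10), against 15.0% (13.2 to 17) of regions in all 12 lists, 10.4% of all regions and 9% of the moved windows. The noCHIR-only regions had a similar 8.04% (6.42 to 10.0). CDX letters were in 7.60% (5.59 to 10.3), against 14.2% of all regions and 18.6% (15.4 to 22.2) of the moved windows. That low share was not particular to the 500: it was 9.06% (7.34 to 11.1) in the noCHIR-only regions and 8.74% (7.36 to 10.3) in all 12 lists. T-box letters were in 4 windows, 0.800% (0.312 to 2.04), against 0.973% of all regions. Base content differs between sets, with a median GC content of 48.3% in the 500 windows and 46.3% over all regions, and its part in these shares was not tested.

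**Figure D3:**
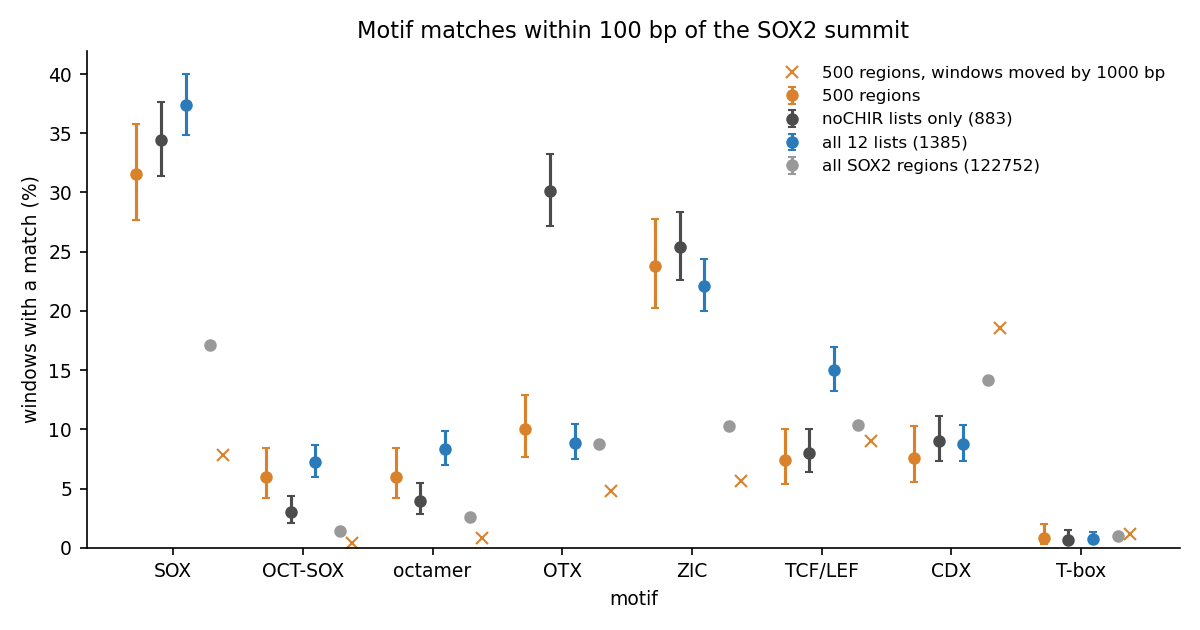
Share of windows (100 bp on each side of the SOX2 summit) with at least 1 match to each of 8 motifs, in percent, for the 500 regions and 3 other sets, with 95% Wilson intervals as bars; crosses give the 500 windows moved by 1000 bp. OTX matches were in 10% of the 500 windows and 30.1% of the noCHIR-only windows, while SOX matches were in 31.6% and 34.4%.

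The 10 regions with the best noCHIR ranks had far lower SOX2 enrichment in WT CHIR, and most of them had intermediate values in the mutants. The strongest lay in an intron of 1700057H15Rik, 168771 bp from 3100002H09Rik (chr4:124441260-124442612). Its SOX2 fold was 42.7, 60.6 and 44.8 in noCHIR and 6.37 and 5.48 in WT CHIR replicates 2 and 3, with no peak in replicate 1. It was 17, 15.6 and 8.81 in CdxKO and 12.3, 16.9 and 12.7 in T/BraKO. All 6 mutant values stood above WT CHIR and below noCHIR. Near Gnas (chr2:174257158-174257980, 26809 bp upstream), which encodes the stimulatory G protein α subunit, the folds were 42.4, 63.8 and 34.3 in noCHIR, and the sole WT CHIR peak, in replicate 1, had 5.87. CdxKO had 22.2, 27.7 and 9.54 there, and T/BraKO 8.28, 21.2 and 12.2. In fragments these were 110, 158 and 91 in noCHIR, 10 in WT CHIR replicate 1, 50, 56 and 32 in CdxKO, and 20 and 45 in T/BraKO replicates 1 and 2. The Gnas window printed above also held TCF/LEF and ZIC letters.

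Fto and Myc were the best-known genes near the others, singled out after their values were seen. Fto encodes an RNA demethylase, and a region in its intron (chr8:91365375-91366302) had folds of 41.7, 51.9 and 21.4 in noCHIR, 8.18, 6.91 and 5.29 in WT CHIR, 14.8, 23.8 and 13.3 in CdxKO and 13.0, 12.8 and 4.5 in T/BraKO. CdxKO stood above WT CHIR in every library, whereas T/BraKO replicate 3 lay below all 3. The region 119314 bp downstream of the Myc start (chr15:62106313-62107049), at a start site of the long noncoding RNA Pvt1, had 43.7, 34.9 and 40.4 in noCHIR. It had 4.41 and 4.81 in WT CHIR replicates 1 and 3 and no peak in replicate 2, then 12.6, 8.25 and 6.44 in CdxKO and 5.91, 6.62 and 7.55 in T/BraKO. At this region the mutants did not overlap WT CHIR. The remaining regions of this group, near Ttc32, A330070K13Rik, Galnt2, Stox2, Tcerg1l and Kcnt2, had noCHIR folds of 26.9 to 48.2 and WT CHIR folds of at most 9.27. At Stox2 the T/BraKO folds of 3.03, 6.93 and 5.25 overlapped the WT CHIR folds of 6.50 and 5.18, and so did CdxKO, with 13.9, 5.82 and 10.8.

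Of the 500 regions, 18 were nearest to a gene on 11 lists of developmental and signalling genes, a share of 3.60% that was close to the 3.24% of all SOX2 regions and below the 6.50% of regions in all 12 lists. No region was nearest to a core pluripotency gene, a Hox gene or a Nodal or BMP pathway gene, lists that held 0.330%, 0.253% and 0.334% of all SOX2 regions, so that few could have been found among 500. The WNT list had 5 regions (1.00%, against 0.464% of all SOX2 regions), the FGF list 4 (0.800%, against 0.358%), the anterior neural list 3 (0.600%, against 0.581%) and the mesoderm list 2 (0.400%, against 0.222%). The naive pluripotency, group B Sox, midbrain and hindbrain, and neuromesodermal lists had 1 each. These counts are small, and nearness does not show which gene a site acts on.

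**Figure D4:**
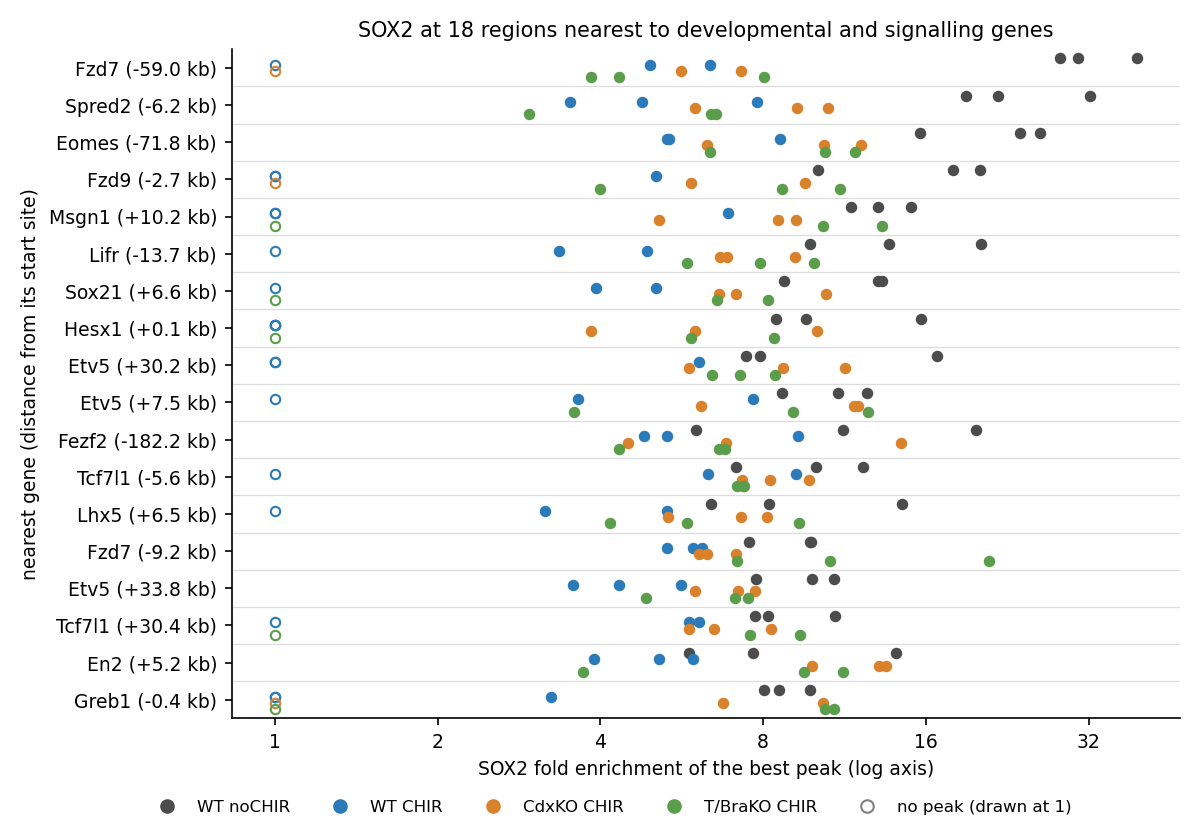
SOX2 fold enrichment, on a log axis, at the 18 regions nearest to a listed gene, with 1 point per library coloured by group and open points at 1 for libraries without a peak; distances are from the start site of the gene. The distal Fzd7 region, at the top, has the widest gap, with noCHIR at 28.3 to 39.2 and every CHIR library at 8.04 or below.

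Of the WNT list, 3 genes were represented. Fzd7 and Fzd9 encode Frizzled receptors, and Tcf7l1 encodes a TCF family repressor that opposes pluripotency genes. The distal Fzd7 region (chr1:59423012-59423678, 59047 bp upstream) had folds of 30.6, 28.3 and 39.2 in noCHIR, 6.37 and 4.93 in WT CHIR replicates 2 and 3, 5.64 and 7.28 in CdxKO replicates 1 and 2, and 3.84, 8.04 and 4.33 in T/BraKO. The mutants overlapped WT CHIR at this region. The proximal Fzd7 region (chr1:59472602-59473489) ran from 7.53 to 9.82 in noCHIR, from 5.31 to 6.17 in WT CHIR, from 6.10 to 7.13 in CdxKO and from 7.15 to 21 in T/BraKO. T/BraKO thus reached above noCHIR there. At Fzd9 (chr5:135253449-135254160) noCHIR had 18, 20.1 and 10.1, WT CHIR a peak of 5.07 in replicate 3 alone, CdxKO 9.58 and 5.89 in replicates 1 and 2, and T/BraKO 8.68, 11.1 and 4.00.

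At both Tcf7l1 regions 1 WT CHIR library lacked a peak and the others were close to the mutants. The upstream region (chr6:72794377-72795535) had 12.2, 10 and 7.14 in noCHIR, 9.21 and 6.32 in WT CHIR replicates 1 and 3, 7.30, 9.71 and 8.24 in CdxKO and 7.38, 7.35 and 7.14 in T/BraKO. Apart from WT CHIR replicate 2, which had no peak, all 4 groups overlapped. The intronic region (chr6:72758407-72758871) had 8.17, 10.9 and 7.74 in noCHIR and 5.84 and 6.09 in WT CHIR replicates 2 and 3. CdxKO had 8.27, 5.82 and 6.50 there, which overlapped WT CHIR, and T/BraKO had 9.35 and 7.57 in replicates 1 and 2.

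In the FGF pathway, Etv5, an ETS factor induced by FGF signalling, had 3 regions inside the gene. The middle one (chr16:22406004-22406630) had 7.90, 7.45 and 16.8 in noCHIR and a WT CHIR peak of 6.09 in replicate 3 alone. CdxKO had 11.3, 5.82 and 8.71 there, and T/BraKO had 7.25, 8.42 and 6.44. Both mutants overlapped noCHIR, and CdxKO alone overlapped the WT CHIR peak. The region at chr16:22402562-22403297 had 7.76 to 10.8 in noCHIR, 3.57 to 5.63 in WT CHIR, 5.99 to 7.74 in CdxKO and 4.87 to 7.50 in T/BraKO, and the region at chr16:22428724-22429208 had 8.65 to 12.4 in noCHIR, a highest WT CHIR fold of 7.65 with no peak in replicate 2, 6.14 to 12 in CdxKO and 3.58 to 12.5 in T/BraKO, so that both mutants overlapped WT CHIR. Spred2 encodes an inhibitor of the RAS and ERK cascade, and its region (chr11:19917471-19918400, 6225 bp upstream) had 21.8, 32.1 and 18.9 in noCHIR and 7.80, 3.51 and 4.77 in WT CHIR. It had 9.24, 10.6 and 5.99 in CdxKO but 2.95, 6.55 and 6.40 in T/BraKO, within the range of WT CHIR apart from replicate 1, which was lower still.

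Anterior neural regulators had 3 regions. Hesx1 encodes a homeobox repressor of the forebrain, and the SOX2 summit lay 112 bp past its start site (chr14:27000238-27000682). This was one of the 15 regions without any WT CHIR peak: noCHIR had folds of 8.45, 9.58 and 15.7, CdxKO 3.84, 5.99 and 10.1, and T/BraKO 8.37 and 5.89 in replicates 1 and 3. Fragments there were 23, 44 and 41 in noCHIR and 16, 16 and 23 in CdxKO. At Lhx5, a LIM homeobox factor of the forebrain, the intronic region (chr5:120437966-120438447) had 6.41, 14.4 and 8.19 in noCHIR, 5.31 and 3.16 in WT CHIR replicates 2 and 3, 8.12, 7.28 and 5.35 in CdxKO and 4.17, 9.31 and 5.80 in T/BraKO. CdxKO lay just above WT CHIR and T/BraKO overlapped it. A region 182180 bp upstream of Fezf2, a forebrain zinc finger factor, lay in an intron of Cadps, and its groups all overlapped (chr14:12530102-12530540, noCHIR 6.02 to 19.8, WT CHIR 4.81 to 9.27, CdxKO 4.49 to 14.4, T/BraKO 4.34 to 6.81).

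The other listed genes were Sox21, En2, Lifr, Greb1, Eomes and Msgn1. Sox21 is a group B SOX factor of neural progenitors, and its region (chr14:118230066-118231066) had 13.1, 13.3 and 8.74 in noCHIR, 3.93 and 5.07 in WT CHIR replicates 1 and 3, 10.4, 6.64 and 7.13 in CdxKO, and 6.59 and 8.15 in T/BraKO replicates 2 and 3. Wherever it was called, SOX2 stood higher in the mutants than in WT CHIR. En2, a homeobox factor of the midbrain and hindbrain, had 5.83, 14.1 and 7.65 in noCHIR, 5.13, 3.89 and 5.92 in WT CHIR, 13.5, 13.1 and 9.85 in CdxKO and 3.72, 11.2 and 9.50 in T/BraKO (chr5:28170686-28171512). CdxKO stood above every WT CHIR library there, and T/BraKO replicate 1 below them all. Eomes encodes a T-box factor of the mesendoderm, and a region 71817 bp upstream and within 1000 bp of another annotated start (chr9:118406069-118406797), had 26.0, 23.9 and 15.6 in noCHIR, 8.59, 5.31 and 5.35 in WT CHIR, 12.2, 10.4 and 6.30 in CdxKO and 6.39, 11.8 and 10.4 in T/BraKO. Msgn1 encodes a bHLH factor of the presomitic mesoderm, and its region (chr12:11198603-11198964) had 13.1, 11.6 and 15.0 in noCHIR, a WT CHIR peak of 6.90 in replicate 2 alone, 9.21, 8.53 and 5.14 in CdxKO, and 10.3 and 13.2 in T/BraKO replicates 1 and 2. At Lifr, the receptor of LIF (chr15:7115704-7116260), noCHIR ran from 9.79 to 20.2, WT CHIR had 4.87 and 3.35 in replicates 1 and 2, and the mutants ran from 5.80 to 9.94, with no overlap with WT CHIR. At Greb1 (chr12:16800882-16801391, 384 bp upstream) noCHIR ran from 8.03 to 9.78, WT CHIR had a peak of 3.24 in replicate 3, CdxKO had 6.74 and 10.3 in replicates 2 and 3, and T/BraKO had 10.8 and 10.4 in replicates 1 and 2.

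β-catenin and LEF1, whose lists had no part in the choice, show what else was bound at these regions with CHIR. In WT, 73 of the 500 regions (14.6%, 95% Wilson interval 11.8 to 18) had a β-catenin peak among the 20000 best of at least 2 of 3 libraries, against a background of 5.94% of all 122752 SOX2 regions. In CdxKO 99 did (19.8%, 16.5 to 23.5), against 5.97%, and in T/BraKO 148 did (29.6%, 25.8 to 33.7), against 7.73%. All 3 shares were above their background, and above those of the noCHIR-only regions (1.47%, 1.59% and 3.17%), but below those of the regions in all 12 lists (67.6%, 67.7% and 75.5%). Wide regions meet more peaks, and the median width was 616 bp here, 188 bp over all regions, 425 bp in the noCHIR-only regions and 951 bp in all 12 lists, whose part in the shares was not tested.

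By library, β-catenin was called at 24.6%, 16.8% and 15.2% of the 500 regions in WT (mean 18.9% ± 5.03, SD, n = 3), at 22.8%, 32.2% and 16% in CdxKO (23.7% ± 8.13) and at 36.4%, 35% and 23.0% in T/BraKO (31.5% ± 7.37). The 3 genotypes overlapped: T/BraKO replicate 3 lay below WT replicate 1. A total of 51 regions had β-catenin in all 3 genotypes (10.2%, against 3.74% of all SOX2 regions) and 325 in none (65%, against 90.3%). It was called in both mutants and not in WT at 27 (5.40%, against 0.925%), and in WT and neither mutant at 6 (1.20%, against 0.609%). The regions in all 12 lists had 4.84% and 1.66% for these last patterns. Promoter regions had β-catenin at 8 of 80 in WT (10%), 12 in CdxKO (15%) and 25 in T/BraKO (31.2%), and the other 420 regions at 15.5%, 20.7% and 29.3%. The same split over all SOX2 regions was not computed, so nothing is read from it.

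LEF1 was rarely among the best peaks. It was called at 5 regions in WT (1.00%, 0.428 to 2.32, background 1.16%), at 21 in CdxKO (4.2%, 2.76 to 6.34, background 1.6%) and at 14 in T/BraKO (2.80%, 1.68 to 4.64, background 1.04%). By library the shares were 3.80%, 3.00% and 2.00% in WT, 6.00%, 7% and 8.20% in CdxKO and 4.40%, 4.2% and 5.20% in T/BraKO. Both mutants lay above all 3 WT libraries without overlap. Both findings hold for the 20000 best peaks: with full lists at least 2 of 3 libraries had LEF1 at 20.2% of the regions in WT, 35% in CdxKO and 30.8% in T/BraKO, and T/BraKO replicate 3 (22.8%) lay below WT replicates 1 and 2 (both 35.2%). No test of 3 against 3 samples is given, and each library's share rests on 10 to 41 regions. Over all SOX2 regions the CdxKO libraries (2.57%, 2.70% and 2.61%) also lay above WT (2.46%, 1.81% and 2.03%), and the T/BraKO libraries (1.68%, 2.16% and 2.21%) overlapped it. Of the regions with LEF1, 19 of the 21 in CdxKO, 13 of the 14 in T/BraKO and 4 of the 5 in WT also had β-catenin. The same share over all SOX2 regions was not computed, so nothing is read from these counts. TCF/LEF letters were in 8 of the 21 CdxKO windows, 6 of the 14 in T/BraKO and 3 of the 5 in WT, also without a computed background.

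**Figure D5:**
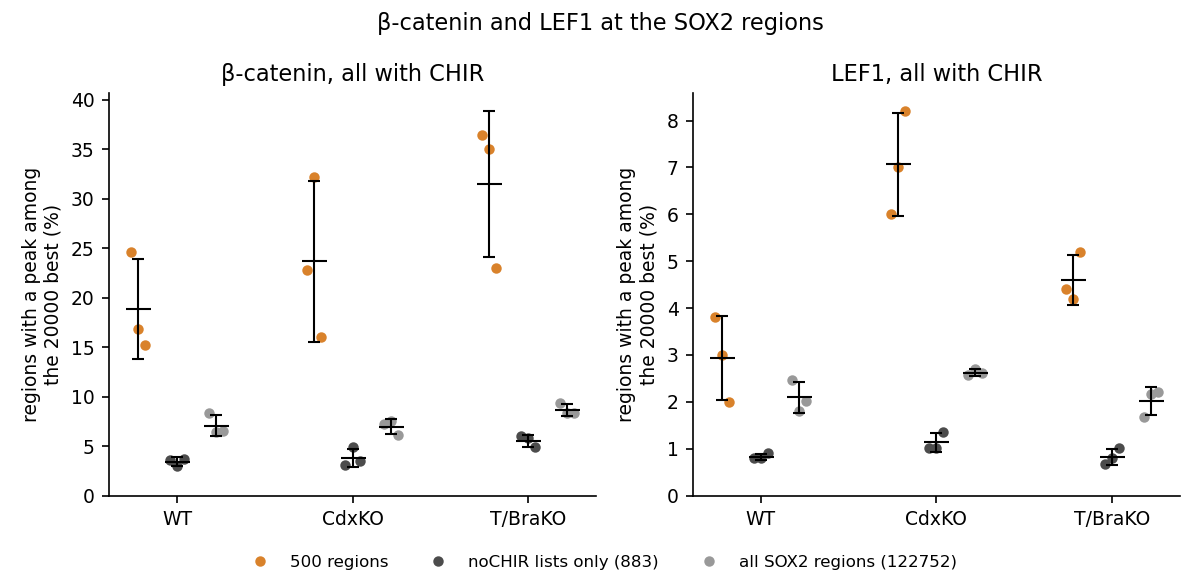
Share of regions with a β-catenin (left) or LEF1 (right) peak among the 20000 best of each library, in percent, for the 500 regions, the 883 noCHIR-only regions and all 122752 SOX2 regions, with 1 point per library and bars for the mean and SD of 3 libraries. The 500 regions lie above the other sets for β-catenin, at 15.2% to 24.6% in WT and 23.0% to 36.4% in T/BraKO, and the LEF1 shares of the mutants do not overlap those of WT.

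To ask whether β-catenin or LEF1 changed with genotype at single regions, log2 fold enrichment was fitted with limma across all SOX2 regions with a peak of any rank in at least 3 of the 9 lists of that factor, and p-values were adjusted over all of them by the Benjamini-Hochberg method. A library without a peak was set to a fold of 1, which imputes its value. For β-catenin 313 of the 500 regions passed this filter and for LEF1 290. In T/BraKO against WT, β-catenin rose at 2 of the 313 and fell at 1 (limma, adjusted p below 0.05), against 0.268% of all 19797 tested regions that rose and 2.42% that fell. In CdxKO against WT, 0 of the 313 passed the threshold, which does not show that values did not differ, against 0.096% of tested regions that rose and 1.06% that fell. At an unadjusted p below 0.05 there were 22 regions in CdxKO, 18 of them higher, and 20 in T/BraKO, 17 of them higher. These were 7.03% and 6.39% of the 313, below the 9.22% and 9.87% of all tested regions, in both directions together. The share of higher ones among all tested regions was not computed, so nothing is read from their direction. The median log2 difference over the 313 was 0.28 in CdxKO and 0.34 in T/BraKO, against 0.03 and 0.07 over all tested regions.

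For LEF1, 0 of the 290 regions passed in either mutant (limma). Over all 23382 tested regions 0% rose and 0% fell in CdxKO, and 0% rose and 0.0428% fell in T/BraKO. At an unadjusted p below 0.05 there were 13 regions in CdxKO, 13 of them higher, and 7 in T/BraKO, 6 of them higher. These were 4.48% and 2.41% of the 290, near the 3.21% and 3.75% of all tested regions, in both directions together. Nothing is read from their direction here either, for want of the share of higher ones. limma without the trend and robust options also called 0 for LEF1, and called 1 region for β-catenin in CdxKO.

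The fall was at a region 13027 bp upstream of Vmn1r13, a vomeronasal receptor of a large gene family (chr6:57190017-57190641). β-catenin fold was 13.0, 25.2 and 31.9 in WT and 35.4, 24.1 and 30.7 in CdxKO, and no T/BraKO library had a peak. The fitted log2 difference from WT was -4.36 (SE 0.60, limma adjusted p = 1.31e-10), with the T/BraKO values imputed. WT and CdxKO overlapped each other and stood far from T/BraKO. SOX2 was called there in T/BraKO replicates 1 and 2, at folds of 6.71 and 13.7, and 85.1% of the window was repeat-masked, a property whose part was not tested. Where gene copies are nearly identical, reads may be placed at the wrong copy. More than 50% of the window was repeat-masked at 93 of the 500 regions (18.6%), against 15.4% of all SOX2 regions. That share was 11.4% in the noCHIR-only regions and 10.6% in all 12 lists.

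The larger rise was at a region 58007 bp upstream of Cobll1, within 1000 bp of the start of Gm13593 (chr2:65296612-65296937). β-catenin had a fold of 6.36 in WT replicate 2 and no peak in the other two, 4.64 and 8.87 in CdxKO replicates 1 and 2, and 22.4, 16.9 and 10.1 in T/BraKO. The log2 difference of T/BraKO from WT was 2.86 (SE 0.89, limma adjusted p = 0.0483), with 2 WT values imputed. All 3 T/BraKO libraries lay above every WT and CdxKO library. This call was past the threshold in 4 of 15 alternative analyses, with adjusted p from 0.00932 to 0.343, and was lost without any 1 of WT replicates 1 and 3, CdxKO replicates 1 and 2 and each T/BraKO replicate.

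The second rise was 548 bp past the start of Pdgfa, which encodes the A chain of platelet-derived growth factor (chr5:138995976-138997263). β-catenin fold was 9.58, 6.36 and 8.80 in WT, 21.5, 22.9 and 16.2 in CdxKO and 44.8, 25.1 and 16.9 in T/BraKO. Both mutants lay above WT in every library. The log2 difference was 1.67 in T/BraKO (SE 0.46, limma adjusted p = 0.0115) and 1.40 in CdxKO (SE 0.46, limma adjusted p = 0.126), the smallest p of the 313 regions in CdxKO. LEF1 at Pdgfa had 10.2 and 5.32 in WT replicates 1 and 3, 17.8, 10.9 and 9.62 in CdxKO and 11.0, 14.7 and 7.91 in T/BraKO, which overlapped. SOX2 followed the pattern of the selection, with 16.6, 30.9 and 14.1 in noCHIR, 6.06, 5.76 and 4.78 in WT CHIR, 12.9, 16 and 17.4 in CdxKO and 17.2, 18.6 and 6.28 in T/BraKO. The T/BraKO call for β-catenin was past the threshold in 10 of 15 alternatives, with adjusted p from 0.00269 to 0.245, and was lost without WT replicate 2, WT replicate 3 or T/BraKO replicate 1.

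For LEF1 the smallest p in each mutant was at an intronic region of Frmd4a, which encodes a FERM domain scaffold protein (chr2:4221646-4222292). LEF1 fold was 4.01 and 4.13 in WT replicates 1 and 2, 13.2, 10.1 and 16.4 in CdxKO and 9.13, 7.58 and 11.8 in T/BraKO. Both mutants lay above WT without overlap. The log2 differences of 2.49 (SE 0.87) and 2.25 (SE 0.87) had limma adjusted p of 1.00 and 0.953 and did not pass. β-catenin was strong there in all 3 genotypes, at 25.1, 32.1 and 20.5 in WT, 42.3, 30.1 and 29.9 in CdxKO and 42.6, 43.0 and 32.2 in T/BraKO, and SOX2 was highest in CdxKO, at 12.2, 14.1 and 13.8, above the noCHIR folds of 7.15, 9.48 and 8.60.

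Among the listed genes, β-catenin peaks were found at some WNT and FGF pathway regions. At the middle Etv5 region, whose window held SOX and TCF/LEF letters, β-catenin had folds of 6.26 and 4.76 in WT replicates 2 and 3, 6.98, 11.2 and 6.76 in CdxKO and 22.8, 9.88 and 5.50 in T/BraKO. The log2 differences were 1.84 in CdxKO (SE 0.77, limma adjusted p = 0.373) and 2.00 in T/BraKO (SE 0.77, limma adjusted p = 0.214), so neither passed. At the proximal Fzd7 region β-catenin had 4.33, 9.12 and 8.70 in WT, 4.8 and 4.74 in CdxKO replicates 1 and 2, and 19, 8.10 and 22.5 in T/BraKO, where the log2 difference of 0.97 had an SE of 0.72 (limma adjusted p = 0.701). The upstream Tcf7l1 region had 7.08, 5.58 and 16.5 in WT, 5.24, 9.91 and 3.25 in CdxKO and 10.6, 15.4 and 10.3 in T/BraKO, with all groups overlapping. The Spred2 and Msgn1 regions and the Etv5 region nearest to the start (chr16:22428724-22429208) had no β-catenin peak in any of the 9 lists.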

How the data were processed

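ChIP–seq peak lists of 30 libraries (mouse, 72 h) were analysed. According to the study's methods the authors trimmed single-end reads, aligned them with BWA to mm10 within the nf-core chipseq pipeline, and per the labels MACS2 called peaks for each library. The deposited lists give each peak a summit position, a score, a fold enrichment over background (a ratio), and -log10 p-values and q-values; which input served as control is not given in the sources used here. Read depth is not given in the lists, and they held 26940 to 1008922 peaks each. The list of SOX2 T/BraKO replicate 3 is the shortest, so a missing peak there says least.

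Peaks on chromosomes 1 to 19, X and Y were ranked by q, and the 20000 best of 12 SOX2 lists were merged. The members and gene lists were chosen with earlier results of these data known. Fragments at a summit were solved from fold and p with a tolerance of 0.001 in -log10 p, a description added after the values were seen. It solved at least 99.5% of peaks tried in 29 libraries and 0.675% in SOX2 T/BraKO replicate 3, where fragments are not given. β-catenin and LEF1 log2 fold enrichment, quantile-normalized between libraries and set to fold 1 where a library had no peak, was fitted with limma 3.58.1 (R 4.3.3, trend and robust) over 9 lists of a factor. Named regions were the 10 with the best mean noCHIR rank, those nearest to a gene of 11 lists (237 genes), and, per test, the largest called rise and fall or else the smallest p. Genes came from GENCODE vM21, and sequences and repeat masking from the RefSeq copy of GRCm38, the assembly of mm10. Wilson intervals cover counting error over regions only. The fitting step was tested on simulated β-catenin data, where most planted changes were missed, so a region that did not pass may still differ. Alternatives varied the number of peaks, windows, filters, normalization, the replicate block and the libraries included.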

Additional observations from a re-analysis of the deposited data

How the results depend on the processing

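Of 233 alternative values for 22 results, 169 kept their direction, side of the threshold or size, 48 moved and 16 lost their call. Sign could change only for the fits at single named regions, where it did not. The LEF1 fits called no member in any alternative, and those values are among the ones kept. The 500 regions became 250 with the 10000 best peaks and 267 with full lists, and 235 to 1338 when 1 library was left out (1338 without WT CHIR replicate 3, 317 and 261 without CdxKO replicates 1 and 2, 235 and 288 without T/BraKO replicates 2 and 3). Without a mutant library both remaining ones had to hold a peak, which favours a lower number. Without a noCHIR or WT CHIR library the rule asked for less, which favours a higher number. Regions with a lower WT CHIR peak were 210 with 40000 best peaks, and 432 to 469 with 1 library left out. With 40000 best peaks and with full lists the β-catenin shares were 21.6% and 38% in WT, 28.8% and 39.2% in CdxKO and 39.2% and 49.8% in T/BraKO (18.4% there with 10000), and with 1 library left out 7.6% to 11.6%, 9.6% to 15.8% and 16.6% to 23.6%. LEF1 shares were 2.4% and 20.2% in WT, 6.0% and 35% in CdxKO (2.8% with 10000) and, with full lists, 30.8% in T/BraKO, and with 1 library left out 0.2% to 0.8%, 1.8% to 3.2% and 1.4% to 2.0%, since a peak was then needed in both remaining libraries. SOX letters were in 24.6% of windows with 50 bp on each side, 38% with 200 bp, 7.8% when moved and 38% of regions chosen with 10000 peaks, OCT-SOX in 0.4% when moved, and CDX letters in 1.8%, 16.8% and, when moved, 18.6%. Promoter shares were 12.8% at 500 bp and 21.4% at 2000 bp. β-catenin calls in CdxKO were 1 without limma's trend and robust options. In T/BraKO the 3 calls became 1 when a peak in 1 of 9 lists was enough, and 1 to 5 with 1 library left out (1 without WT replicate 3 or T/BraKO replicate 1, 5 without CdxKO replicate 3). With the replicate block they were 5. Same-numbered libraries correlated at -0.0247 to 0.126 for β-catenin and differently numbered ones at -0.115 to 0.0738. These ranges overlap, and whether the numbers pair the samples was not settled. Few fragments per summit in WT CHIR limit what single regions can show, and the cause of these changes was not tested.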
